A study of Mus musculus with 9 samples.

Results

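The genes of cholesterol synthesis and handling were followed in mouse ventral hippocampus, the tissue the labels call freshly isolated vHIP. They are 30 genes chosen by symbol with earlier results of these data known, all found among the 53465 genes of the deposited table. Enzymes of the mevalonate and isoprenoid steps gave 8 of them, enzymes from farnesyl diphosphate to lanosterol gave 3, and enzymes from lanosterol to cholesterol gave 9. The regulators of the SREBP transcription factors gave 5, and transport, storage and turnover gave 5. RNA was sequenced in bulk in 9 libraries. The groups were CRS-WT-DR5-12D, CRS-NKAα1+/- and CRS-WT, with 3 libraries each. Every group name carries CRS, so the CRS-WT mice share it with both others. By the mark WT, the CRS-WT and CRS-WT-DR5-12D mice are both wild type, and the name CRS-WT-DR5-12D adds DR5-12D. CRS-NKAα1+/- mice have a heterozygous NKAα1 genotype by the mark +/-. Neither CRS nor DR5-12D is spelled out, and the labels give no dose, age, sex or strain. They also do not state whether libraries came from separate or pooled animals. The p-values below therefore measure only the spread between these samples, which may be technical.

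Cholesterol in the brain is made locally, because lipoproteins of the blood do not cross the blood-brain barrier. Acetyl-CoA is built into mevalonate, then into isoprenoid units, squalene and lanosterol, which a chain of reductases, demethylating enzymes and isomerases turns into cholesterol. When sterols in the endoplasmic reticulum run low, SCAP escorts SREBP2 to the Golgi for cleavage, and the freed factor switches on nearly the whole enzyme chain, often together with the CCAAT-binding factor NF-Y. INSIG proteins hold SCAP back when sterols are plentiful, and Insig1 is itself a target of SREBP. Astrocytes supply neurons with cholesterol on APOE particles loaded by ABCA1, SOAT1 stores it as ester, and the neuronal enzyme CYP46A1 oxidises it for removal from the brain.

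Values are FPKM, fragments scaled to gene length and library depth, so levels can be set side by side between genes. The depth that the FPKM steps imply ran from 15117452 to 27323380 fragments per library. At that depth the 29 members with a mean of at least 0.5 FPKM had from 138 fragments (Idi1 in 1 library) to 73432 (Apoe). In 3 libraries, replicates 1 and 2 labelled CRS-NKAα1+/- and CRS-WT-DR5-12D replicate 1, a list of 10 dentate granule cell markers had a mean log2(FPKM + 1) of 1.59 to 1.74, against 2.82 to 3.22 in the other 6. These 3 libraries are called low-dentate below, and results that rest on them are given with and without them.

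The promoters of 26 of the 30 members were read from RefSeq windows of 300 bases on GRCm38.p6, each from 250 bases before a transcript start to 50 after it. Fdft1, Fdps, Sqle and Stard4 had no entry. Both strands were searched for CCAAT, the letters of the NF-Y box, and for TCACNCCAC, a spelling of the sterol response element, and the searched letters share no bases in the windows shown. CCAAT stood in a window of 22 of the 26 members (84.6%), against 41.1% of 27025 genes. By window it was 23 of 36 (63.9%), against 37.4% of 32851. TCACNCCAC stood in 1 member, Hmgcs1 (3.85%), against 1.44% of all genes, where it begins 137 bases before the start. Only this spelling was searched, so the other members may hold the element in letters that were missed. Windows are shown for the synthesis genes Idi1 (chr13:8885356-8885655, plus strand), Hmgcs1 (chr13:119690101-119690400, plus strand) and Msmo1 (chr8:64733529-64733828, minus strand) and for the regulator Insig1 (chr5:28071162-28071461, plus strand), which were among the members with the largest differences in CRS-WT-DR5-12D libraries. Apoe (chr7:19699139-19699438, minus strand, the most upstream of its 3 windows) is also shown. It is 1 of 2 members, with Abca1, without CCAAT that were lower than CRS-WT there at an unadjusted p under 0.05. Acat2 and Scap, without such a p, have no CCAAT either, while 11 of the 13 members with an entry and no such p have it. Capitals mark CCAAT or, where it lies on the other strand, ATTGG, and in Hmgcs1 also TCACCCCAC.
Idi1: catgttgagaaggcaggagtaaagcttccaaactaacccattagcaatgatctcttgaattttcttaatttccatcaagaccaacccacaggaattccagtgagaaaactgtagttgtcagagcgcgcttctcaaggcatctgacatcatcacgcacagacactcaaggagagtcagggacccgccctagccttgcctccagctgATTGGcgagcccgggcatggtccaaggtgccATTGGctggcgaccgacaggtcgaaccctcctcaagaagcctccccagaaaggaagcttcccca
Hmgcs1: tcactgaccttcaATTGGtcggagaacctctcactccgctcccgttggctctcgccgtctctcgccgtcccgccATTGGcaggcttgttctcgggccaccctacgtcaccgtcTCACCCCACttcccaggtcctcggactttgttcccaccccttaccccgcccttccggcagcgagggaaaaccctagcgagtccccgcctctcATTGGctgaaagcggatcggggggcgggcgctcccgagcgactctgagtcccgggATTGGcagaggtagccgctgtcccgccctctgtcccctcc
Msmo1: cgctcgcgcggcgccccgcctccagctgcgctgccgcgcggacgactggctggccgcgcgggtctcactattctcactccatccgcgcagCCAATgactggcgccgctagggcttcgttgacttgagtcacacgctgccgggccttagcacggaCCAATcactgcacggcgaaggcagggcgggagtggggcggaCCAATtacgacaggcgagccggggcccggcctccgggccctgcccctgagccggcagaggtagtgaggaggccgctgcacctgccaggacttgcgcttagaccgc
Insig1: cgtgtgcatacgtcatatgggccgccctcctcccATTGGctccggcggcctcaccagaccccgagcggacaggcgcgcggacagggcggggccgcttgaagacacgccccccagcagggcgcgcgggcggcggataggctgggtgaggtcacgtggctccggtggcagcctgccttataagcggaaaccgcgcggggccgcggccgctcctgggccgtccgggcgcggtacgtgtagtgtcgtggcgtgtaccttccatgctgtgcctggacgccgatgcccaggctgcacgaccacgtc
Apoe: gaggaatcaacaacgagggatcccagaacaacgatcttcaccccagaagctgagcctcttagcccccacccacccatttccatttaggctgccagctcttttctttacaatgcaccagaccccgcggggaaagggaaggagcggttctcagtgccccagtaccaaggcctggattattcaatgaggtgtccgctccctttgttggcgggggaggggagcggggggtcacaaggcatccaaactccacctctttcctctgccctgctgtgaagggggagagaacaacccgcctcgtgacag
Each of the 4 synthesis and regulator windows holds at least 1 CCAAT box, Hmgcs1 4 of them. A match describes the letters of the window, not binding.

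The genes differed widely in level in this tissue. Apoe, the main apolipoprotein of the brain, averaged 975 FPKM over the 9 libraries, far above any other member. Hmgcs1, which condenses acetoacetyl-CoA with acetyl-CoA, was the highest of the synthesis enzymes with 40.4 FPKM, close to the turnover enzyme Cyp46a1 at 43.8 FPKM, and Srebf2, which encodes SREBP2, stood at 34.1 FPKM. The lowest tested synthesis enzymes were Lbr, a sterol reductase that also anchors the nuclear envelope, at 2.30 FPKM, Hsd17b7 at 2.96 FPKM and Lss, the cyclase that makes lanosterol, at 3.15 FPKM. Fdps, farnesyl diphosphate synthase, averaged 0.274 FPKM, under the minimum of 0.5, and was not tested. Its values were 0.526, 0.300 and 0.277 FPKM in CRS-WT-DR5-12D libraries, 0.212, 0.273 and 0.236 FPKM in libraries labelled CRS-NKAα1+/- and 0.313, 0.0786 and 0.252 FPKM in CRS-WT libraries. It had 5 to 58 fragments per library and shares 26.7% of its exon bases with the same-strand Gm43738, so its level is uncertain.

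**Figure D1:**
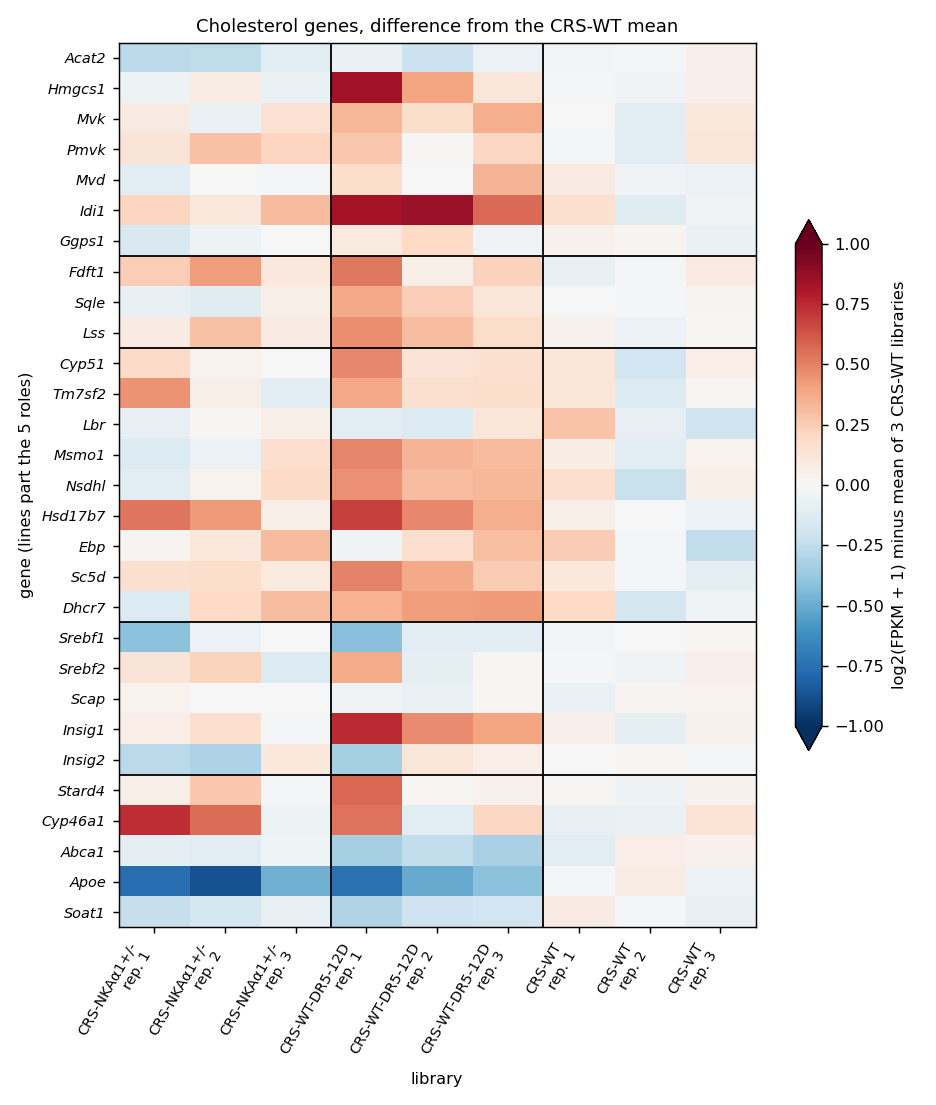
Difference of log2(FPKM + 1) from the mean of the 3 CRS-WT libraries for the 29 tested cholesterol genes (rows, parted by role) in each of the 9 libraries (columns, parted by group), with red for higher and blue for lower values. Idi1, Insig1 and Msmo1 are red in all 3 CRS-WT-DR5-12D libraries, and Apoe is blue in all 6 libraries of the other groups than CRS-WT.

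In CRS-WT-DR5-12D relative to CRS-WT, most synthesis enzymes and Insig1 stood higher in the mean, and Apoe, Abca1 and Soat1 stood lower, by 0.2 to 0.8 on the log2 scale for the clearest ones. At the threshold of an adjusted p under 0.05 (limma on log2(FPKM + 1), Benjamini-Hochberg over 17753 genes) none of the 29 tested members passed, beside 0.0282% of all genes passing as higher and 0% as lower. At an unadjusted p under 0.05, 11 of 29 members (37.9%) were higher, beside 6.33% of all genes, and 3 (10.3%) were lower, beside 6.71%. Since the members were chosen with earlier results of these data known, such shares, here and below, are descriptive and not independent support. The 11 were Idi1, Insig1, Sc5d, Msmo1, Hsd17b7, Lss, Mvk, Nsdhl, Sqle, Dhcr7 and Hmgcs1, so 10 of the 19 tested synthesis enzymes and 1 regulator. The 3 lower ones, Apoe, Abca1 and Soat1, all belong to transport and storage. The median log2 fold change was 0.27 for the 19 synthesis enzymes and 0.22 for all 29 members, against 0.01 for all genes, and after rescaling to TPM (each library divided by the sum of its FPKM) it was −0.10 for the members against −0.33 for all genes. In 13 members (44.8%) every CRS-WT-DR5-12D library lay above every CRS-WT library, beside 11.4% of all genes, and in 5 (17.2%) below, beside 11.4%. Of the 11 higher genes, 8 had their highest value of all 9 libraries in CRS-WT-DR5-12D replicate 1, 1 in replicate 2 and 2 in replicate 3.

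Among the mevalonate and isoprenoid enzymes, Idi1, Hmgcs1 and Mvk stood out. Idi1, which turns isopentenyl diphosphate into its isomer (chr13:8885501-8892451 on GRCm38, plus strand), had 5.99, 6.15 and 4.83 FPKM in CRS-WT-DR5-12D libraries and 3.55, 3.22 and 3.89 FPKM in libraries labelled CRS-NKAα1+/-, against 3.38, 2.60 and 2.83 FPKM in CRS-WT libraries. All 3 CRS-WT-DR5-12D values lay above the 6 others. Its log2 fold change was 0.76 ± 0.11 (SE), with the smallest p of any member, 0.000113 unadjusted and 0.0908 adjusted by limma. Of its exon bases 9.22% are shared with Gm48574 on the other strand, and whether the counting used strand is not given in the sources used here. Hmgcs1 (chr13:119690379-119708260, plus strand), whose promoter holds the sterol response element spelled above, had 64.7, 47.1 and 38.8 FPKM in CRS-WT-DR5-12D libraries and 34.4, 37.5 and 33.9 FPKM in libraries labelled CRS-NKAα1+/-, against 35.1, 34.8 and 37.0 FPKM in CRS-WT libraries. The 3 CRS-WT-DR5-12D libraries were the top 3 but spread widely, so that the SD of 13.2 FPKM is several times that of either other group. The difference of 0.45 ± 0.16 on the log2 scale (limma adjusted p = 0.288) was 0.26 without CRS-WT-DR5-12D replicate 1. Hmgcs1 also shares 12.1% of its exon bases with Gm48342 on the other strand. Mvk, mevalonate kinase, had 9.23, 8.17 and 9.47 FPKM in CRS-WT-DR5-12D libraries and 7.66, 6.75 and 8.02 FPKM in libraries labelled CRS-NKAα1+/-, against 7.11, 6.55 and 7.74 FPKM in CRS-WT libraries. Its lowest CRS-WT-DR5-12D library lay just above the highest of the others (log2 fold change 0.29 ± 0.09, or −0.04 after rescaling to TPM, limma adjusted p = 0.244). The other 4 tested genes of this stretch had log2 fold changes from −0.11 (Acat2, the thiolase of the opening step) to 0.17 (Mvd, the decarboxylase before Idi1), with Pmvk, the next kinase, at 0.16 and Ggps1, which leads to geranylgeranyl diphosphate, at 0.08. Acat2 was lower in each CRS-WT-DR5-12D library than in any CRS-WT library, though its unadjusted p was not under 0.05.

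The enzymes from squalene to lanosterol were all 3 higher in the mean. Sqle, the squalene monooxygenase that opens the path to the sterol ring, had 11.7, 10.5 and 9.56 FPKM in CRS-WT-DR5-12D libraries and 8.25, 7.93 and 9.11 FPKM in libraries labelled CRS-NKAα1+/-, against 8.70, 8.60 and 8.91 FPKM in CRS-WT libraries. Its CRS-WT-DR5-12D libraries were again the top 3 of the 9 (log2 fold change 0.25 ± 0.08, or −0.10 after rescaling to TPM, limma adjusted p = 0.275). Lss had 4.12, 3.58 and 3.19 FPKM in CRS-WT-DR5-12D libraries and 2.91, 3.54 and 2.93 FPKM in libraries labelled CRS-NKAα1+/-, against 2.81, 2.56 and 2.74 FPKM in CRS-WT libraries. Here CRS-WT-DR5-12D lay apart from CRS-WT (log2 fold change 0.32 ± 0.10, limma adjusted p = 0.243) but overlapped the libraries labelled CRS-NKAα1+/-. Fdft1, squalene synthase, averaged 30.2 ± 5.24 FPKM in CRS-WT-DR5-12D and 24.6 ± 1.44 FPKM in CRS-WT libraries (SD, n = 3 each), with overlapping ranges. Without strand in the counting, its fragments cannot be told apart from those of Ctsb, with which it shares 18.3% of its exon bases on the other strand.

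**Figure D2:**
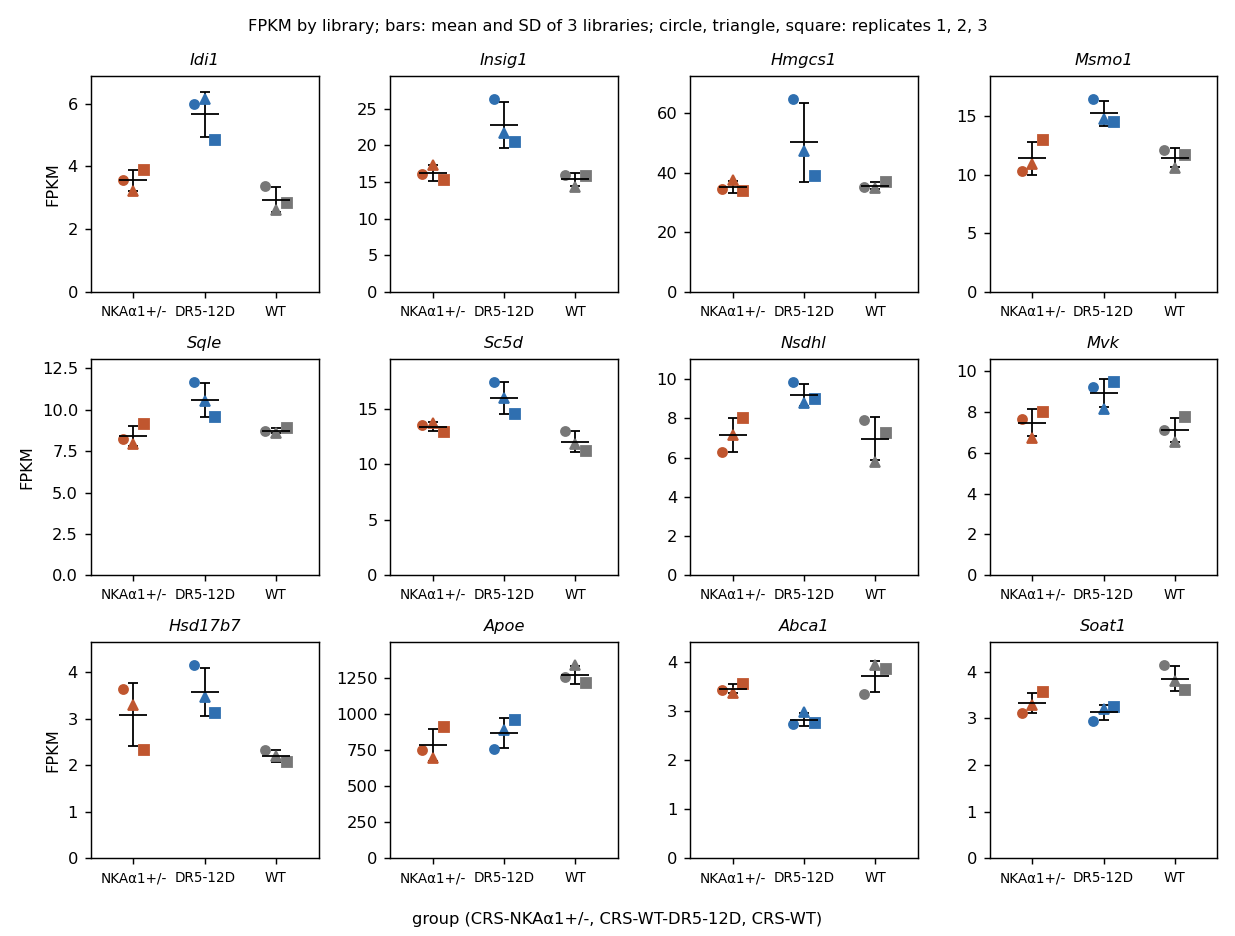
FPKM of 12 members in each library (y axes from 0) by group, with the mean and SD of 3 libraries as bars and replicates 1, 2 and 3 as circle, triangle and square. In the 8 genes Idi1, Insig1, Hmgcs1, Msmo1, Sqle, Sc5d, Nsdhl and Mvk the 3 CRS-WT-DR5-12D libraries lie above the other 6, while Apoe is lower in both other groups than in CRS-WT. On the TPM scale, the log2 fold changes of Mvk and Sqle relative to CRS-WT lie below 0.

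From lanosterol to cholesterol, 5 of 9 enzymes were higher at an unadjusted p under 0.05, beside 6.33% of all genes. In 7 of 9 the CRS-WT-DR5-12D libraries were all above CRS-WT, beside 11.4% of all genes. Msmo1, a methylsterol monooxygenase that takes part in removal of the methyl groups (chr8:64718139-64733792, minus strand), had 16.4, 14.7 and 14.5 FPKM in CRS-WT-DR5-12D libraries and 10.3, 10.9 and 13.0 FPKM in libraries labelled CRS-NKAα1+/-, against 12.1, 10.5 and 11.7 FPKM in CRS-WT libraries. Sc5d, the desaturase near the end of the chain (chr9:42251595-42264256, minus strand), had 17.4, 16.0 and 14.5 FPKM in CRS-WT-DR5-12D libraries and 13.5, 13.7 and 12.9 FPKM in libraries labelled CRS-NKAα1+/-, against 13.0, 11.9 and 11.2 FPKM in CRS-WT libraries. In both genes the CRS-WT-DR5-12D group lay above all 6 others, with log2 fold changes of 0.38 ± 0.10 and 0.38 ± 0.08 and limma adjusted p-values of 0.180 and 0.152. Nsdhl, the dehydrogenase acting after Msmo1, had 9.85, 8.80 and 8.98 FPKM in CRS-WT-DR5-12D libraries and 6.31, 7.13 and 8.03 FPKM in libraries labelled CRS-NKAα1+/-, against 7.91, 5.77 and 7.24 FPKM in CRS-WT libraries. Dhcr7, dehydrocholesterol reductase, had 4.95, 5.24 and 5.29 FPKM in CRS-WT-DR5-12D libraries and 3.25, 4.36 and 4.81 FPKM in libraries labelled CRS-NKAα1+/-, against 4.38, 3.17 and 3.57 FPKM in CRS-WT libraries. These 2 genes also had their top 3 values in CRS-WT-DR5-12D, although the CRS-WT spread was wide (log2 fold changes 0.36 ± 0.12 and 0.40 ± 0.13, limma adjusted p = 0.263 and 0.280). Hsd17b7, the ketosteroid reductase of the demethylation step, had 4.15, 3.47 and 3.12 FPKM in CRS-WT-DR5-12D libraries and 3.64, 3.30 and 2.33 FPKM in libraries labelled CRS-NKAα1+/-, against 2.34, 2.20 and 2.08 FPKM in CRS-WT libraries. It lay apart from CRS-WT (log2 fold change 0.51 ± 0.14, limma adjusted p = 0.200), but not from the libraries labelled CRS-NKAα1+/-. Cyp51, the lanosterol demethylase, and Tm7sf2, a sterol reductase, had log2 fold changes of 0.26 and 0.24, Ebp, the sterol isomerase, 0.14, and Lbr −0.04, none with an unadjusted p under 0.05. Lbr and the regulator Scap share 10.7% and 13.2% of their exon bases with other genes. Tm7sf2 shares 12.1% of its exon bases with Vps51 on the same strand, and its values were not whole fragment counts at the annotated length.

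Of the 5 SREBP regulators, Insig1 differed from the rest. Insig1 (chr5:28071363-28078662, plus strand) had 26.3, 21.7 and 20.4 FPKM in CRS-WT-DR5-12D libraries and 16.1, 17.4 and 15.2 FPKM in libraries labelled CRS-NKAα1+/-, against 15.9, 14.3 and 15.8 FPKM in CRS-WT libraries. The CRS-WT-DR5-12D libraries were the top 3 and did not overlap the others (log2 fold change 0.54 ± 0.10, limma adjusted p = 0.127). Insig2, its paralog that is not switched on by SREBP in the same way, averaged 13.5 ± 2.38 FPKM in CRS-WT-DR5-12D and 13.8 ± 0.154 FPKM in CRS-WT libraries (SD, n = 3 each), a log2 fold change of −0.05. The ratio of Insig1 to Insig2 FPKM was 2.45, 1.43 and 1.40 in CRS-WT-DR5-12D, 1.43, 1.58 and 1.02 in libraries labelled CRS-NKAα1+/-, and 1.15, 1.02 and 1.16 in CRS-WT. The mRNAs of the factors and their escort showed smaller differences, Srebf2 at 0.10, Scap at −0.03 and Srebf1, which encodes the SREBP1 proteins, at −0.21. The values of Srebf2, like those of Tm7sf2, were not whole fragment counts at the annotated length. Srebf1 was lower in each CRS-WT-DR5-12D library than in any CRS-WT library, 5.99, 7.66 and 7.63 FPKM in CRS-WT-DR5-12D libraries against 8.17, 8.36 and 8.46 FPKM in CRS-WT libraries, without an unadjusted p under 0.05. SREBP activity depends on cleavage of the protein, which these RNA values do not measure.

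In transport, storage and turnover the differences ran the other way for 3 of 5 genes. Apoe (chr7:19696109-19699188, minus strand) had 756, 894 and 957 FPKM in CRS-WT-DR5-12D libraries and 749, 695 and 912 FPKM in libraries labelled CRS-NKAα1+/-, against 1257, 1339 and 1219 FPKM in CRS-WT libraries. Every library of both groups was below every CRS-WT library, and relative to CRS-WT the CRS-WT-DR5-12D log2 fold change was −0.55 ± 0.13 (limma adjusted p = 0.177). Abca1, the exporter that loads cholesterol onto apolipoproteins, had 2.75, 2.98 and 2.76 FPKM in CRS-WT-DR5-12D libraries and 3.43, 3.38 and 3.56 FPKM in libraries labelled CRS-NKAα1+/-, against 3.35, 3.94 and 3.86 FPKM in CRS-WT libraries. Its CRS-WT-DR5-12D libraries were the lowest 3 of the 9 (log2 fold change −0.30 ± 0.07, limma adjusted p = 0.178). Soat1, the esterifying enzyme, had 2.94, 3.19 and 3.25 FPKM in CRS-WT-DR5-12D libraries and 3.12, 3.30 and 3.57 FPKM in libraries labelled CRS-NKAα1+/-, against 4.14, 3.80 and 3.61 FPKM in CRS-WT libraries. It lay below CRS-WT without overlap (log2 fold change −0.23 ± 0.08, limma adjusted p = 0.272), while CRS-WT-DR5-12D and the libraries labelled CRS-NKAα1+/- overlapped. Stard4, a cytosolic sterol carrier, and Cyp46a1 had log2 fold changes of 0.21 and 0.22, and 0.03 and 0.05 without CRS-WT-DR5-12D replicate 1. Stard4 had 5.72, 3.54 and 3.64 FPKM in CRS-WT-DR5-12D libraries, and Cyp46a1 had 54.2, 34.3 and 42.8 FPKM in CRS-WT-DR5-12D libraries, with replicate 1 the highest in both. The 4 members without CCAAT in their windows were Apoe, Abca1, Acat2 and Scap. All 10 members with an entry that were higher at an unadjusted p under 0.05 had one, as did 1 of the 3 lower ones (Soat1) and 11 of the 13 others, Srebf1 among them. A relation between the box and the differences was not tested.

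**Figure D3:**
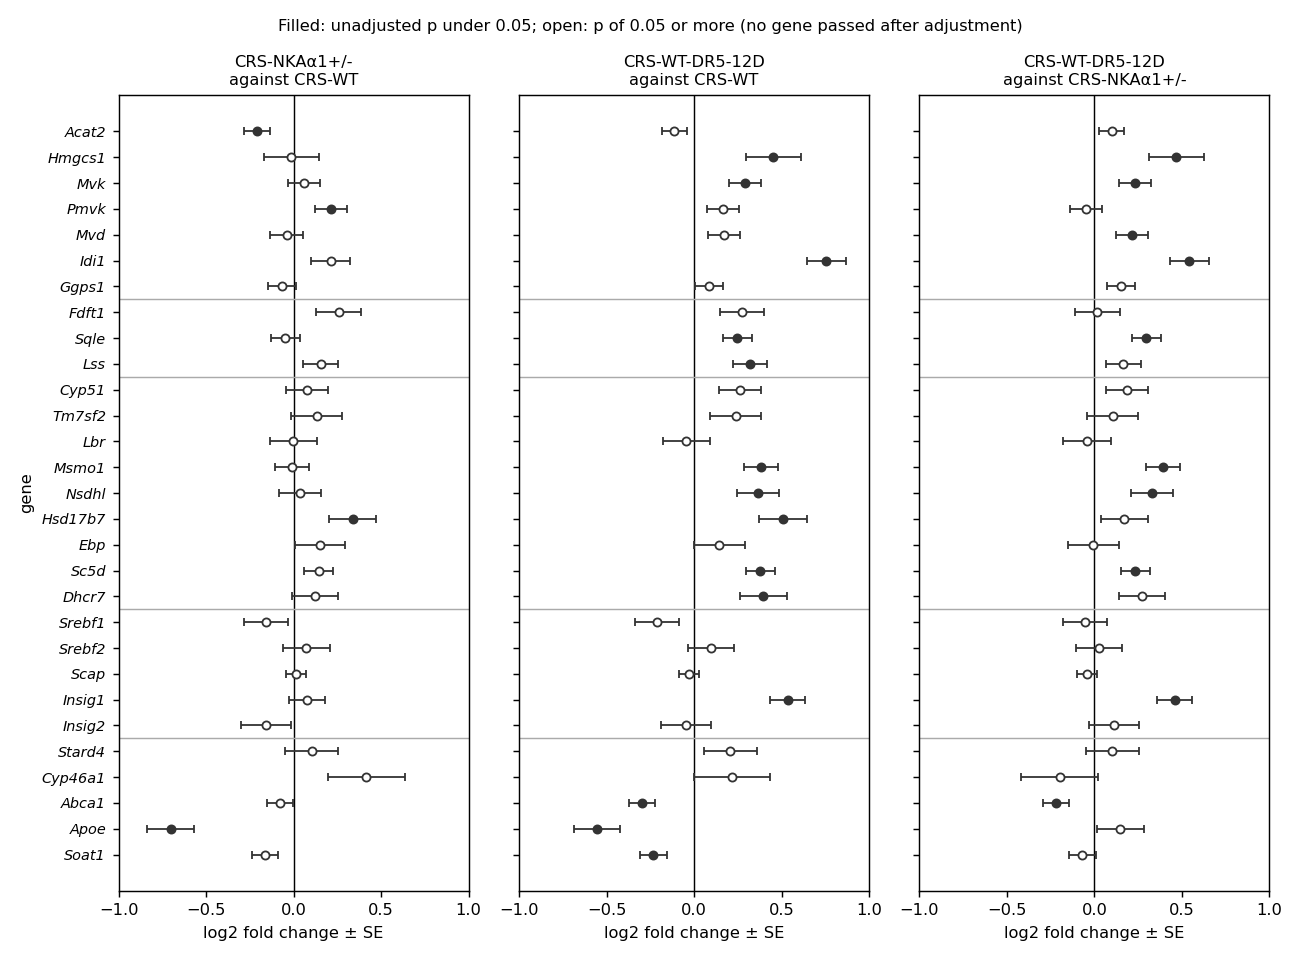
Log2 fold change with its SE (x axis) for the 29 tested members (rows, parted by role) in the 3 comparisons, filled where the unadjusted p was under 0.05. Against CRS-WT, 11 genes are filled to the right and 3 to the left for CRS-WT-DR5-12D, and 2 on each side for libraries labelled CRS-NKAα1+/-. On the TPM scale these counts are 1 and 7, beside 0.755% and 37.5% of all genes, and 0 and 18, beside 1.06% and 56%.

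CRS-WT-DR5-12D relative to CRS-NKAα1+/- uses the same CRS-WT-DR5-12D libraries, so it is not a second measurement of them. None of the 29 members passed an adjusted p under 0.05, beside 0.0113% of all genes as higher and 0.501% as lower. At an unadjusted p under 0.05, 9 members (31%) were higher, beside 3.33% of all genes, and 1 (3.45%) was lower, beside 5.5%. The 9 were the 8 synthesis enzymes Idi1, Msmo1, Sqle, Hmgcs1, Sc5d, Nsdhl, Mvk and Mvd, and Insig1, and the lower one was Abca1. In 10 members (34.5%) every CRS-WT-DR5-12D library lay above every library labelled CRS-NKAα1+/-, beside 5.35% of all genes, and in 1 (3.45%) below, beside 7.15%. Idi1 stood 0.54 ± 0.11 higher on the log2 scale (limma adjusted p = 0.0980) and Insig1 0.46 ± 0.10 higher (limma adjusted p = 0.120). Msmo1 followed with 0.39 ± 0.10 and Sqle with 0.30 ± 0.08, at limma adjusted p-values of 0.168 and 0.242. The remaining higher ones ran from 0.21 (Mvd) to 0.47 (Hmgcs1), and Abca1 stood at −0.22 ± 0.07, with limma adjusted p-values of 0.367 to 0.559. Without the low-dentate libraries the differences were 0.40 for Idi1, 0.16 for Msmo1, 0.13 for Sqle, 0.13 for Nsdhl and 0.12 for Mvk. Hmgcs1 was at 0.27 without CRS-WT-DR5-12D replicate 1, and Mvd at 0.13 without CRS-WT-DR5-12D replicate 3. Mvd had 12.1, 10.6 and 13.6 FPKM in CRS-WT-DR5-12D libraries, against 9.76, 10.5 and 10.5 FPKM in libraries labelled CRS-NKAα1+/- and 11.3, 10.3 and 10.1 FPKM in CRS-WT libraries. Only its ranges for CRS-WT-DR5-12D and the libraries labelled CRS-NKAα1+/- lay apart, and replicate 2 of CRS-WT-DR5-12D sat close to them. Without CRS-WT-DR5-12D replicate 1 the count of members at an unadjusted p under 0.05 was 5 higher and 1 lower, beside 13% of all genes in either direction. Apoe stood at 0.15 and Hsd17b7 at 0.17 here, with overlapping libraries.

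Counting over all 9 libraries, the CRS-WT-DR5-12D libraries lay above the 6 others in 9 members (Hmgcs1, Mvk, Idi1, Sqle, Msmo1, Nsdhl, Sc5d, Dhcr7 and Insig1), beside 1.79% of all genes, and below them in 1 (Abca1), beside 3.67%. The members were measured in the same libraries and chosen with earlier results of these data known, so these counts are not independent observations. In the moderated F-test for any difference among the 3 groups no member passed an adjusted p under 0.05, beside 0.27% of all genes, and 14 of 29 had an unadjusted p under 0.05, beside 13.7%. Idi1 came nearest with a limma adjusted p of 0.0657, followed by Insig1 (0.106) and Apoe (0.118). The 14 became 8 without CRS-WT-DR5-12D replicate 1, beside 15.2% of all genes, and 9 without CRS-WT replicate 2, beside 10%.

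CRS-NKAα1+/- relative to CRS-WT, by the labels, had Apoe as its largest difference, and synthesis enzymes at log2 fold changes from −0.21 to 0.34. It shares the CRS-WT libraries with the first comparison. No member passed an adjusted p under 0.05, beside 0.0225% of all genes as higher and 0% as lower. At an unadjusted p under 0.05, 2 members (6.9%) were higher, beside 7.6% of all genes, and 2 were lower, beside 6.51%, shares near the background. Non-overlapping ranges were found in 3 higher members (10.3%) and 3 lower ones, beside 10.9% and 10% of all genes. Among them were the enzymes Fdft1 and Lss, higher by log2 fold changes of 0.26 and 0.15, and Soat1, lower at −0.16. None of these named genes had an unadjusted p under 0.05. Apoe had the largest difference, −0.70 ± 0.13 on the log2 scale (limma adjusted p = 0.142), with means of 785 ± 113 FPKM in libraries labelled CRS-NKAα1+/- and 1271.5 ± 61.2 FPKM in CRS-WT libraries (SD, n = 3 each). Acat2 had 8.08, 8.17 and 9.06 FPKM in libraries labelled CRS-NKAα1+/-, against 9.68, 9.75 and 10.3 FPKM in CRS-WT libraries. Pmvk had 20.4, 22.9 and 21.7 FPKM in libraries labelled CRS-NKAα1+/-, against 18.4, 17.2 and 20.3 FPKM in CRS-WT libraries. Acat2 and Pmvk each lay apart from CRS-WT, by log2 fold changes of −0.21 ± 0.07 and 0.21 ± 0.09 (limma adjusted p = 0.307 and 0.350). Hsd17b7 stood at 0.34 ± 0.14 (limma adjusted p = 0.335), with the third library level with CRS-WT, and on the TPM scale Hsd17b7 and Pmvk were at −0.02 and −0.25. Cyp46a1 had 62.1, 54.7 and 35.7 FPKM in libraries labelled CRS-NKAα1+/-, against 35.0, 35.2 and 40.7 FPKM in CRS-WT libraries, high in the 2 low-dentate libraries and within the CRS-WT range in replicate 3. Idi1 stood at 0.21 and Insig1 at 0.08. The median log2 fold change was 0.07 for the synthesis enzymes and 0.06 for all members, against 0.01 for all genes. The 4 members at an unadjusted p under 0.05, beside 14.1% of all genes in either direction, became 2 without CRS-NKAα1+/- replicate 1 (beside 10.9%). They became 1 without replicate 2 (beside 7.32%), and 2 without CRS-WT replicate 2 or 3 (beside 9.74% and 10.7%). They became 6 without CRS-NKAα1+/- replicate 3, where 25.8% of all genes had such a p, and 5 without CRS-WT-DR5-12D replicate 1 (beside 17.4%). They were 3 or 4 without each of the others, beside 8.64% to 13.4%.

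Genes around the pathway were read from 4 further lists, none of whose tested members passed an adjusted p under 0.05 in these comparisons. This holds for the fit used here, and some passed under alternatives given at the end. The list of other sterol synthesis and SREBP2 genes is reported only in part, so its values do not describe the whole list. Its 11 tested genes reported here had log2 fold changes from −0.48 to 0.29 in CRS-WT-DR5-12D relative to CRS-WT, with a median of 0.10, below the 0.27 of the 19 synthesis enzymes. None of the 11 had an unadjusted p under 0.05 there or in CRS-NKAα1+/- relative to CRS-WT. Acss2, cytosolic acetyl-CoA synthetase, was the 1 of 11 that was higher in CRS-WT-DR5-12D relative to CRS-NKAα1+/- at that threshold (0.24 ± 0.08). The share of all genes there was 3.33%.

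Relative to CRS-WT, 5 of 26 other transport, storage and oxidation genes were lower in CRS-WT-DR5-12D at an unadjusted p under 0.05 and none higher, beside 6.71% and 6.33% of all genes. Clu, clusterin, a brain apolipoprotein, had 223, 260.0 and 273 FPKM in CRS-WT-DR5-12D libraries, against 373, 376 and 331 FPKM in CRS-WT libraries. Npc2, which hands cholesterol out of lysosomes, had 10.6, 10.2 and 10.9 FPKM in CRS-WT-DR5-12D libraries, against 15.5, 13.7 and 12.4 FPKM in CRS-WT libraries. Lipa, the lysosomal lipase, had 4.92, 5.75 and 5.74 FPKM in CRS-WT-DR5-12D libraries, against 6.98, 7.49 and 6.71 FPKM in CRS-WT libraries. In these 3 genes the groups did not overlap, and the log2 fold changes were −0.52 ± 0.11, −0.36 ± 0.10 and −0.32 ± 0.09 (limma adjusted p = 0.139, 0.201 and 0.204). The other 2 were Apod, a lipocalin, and Ch25h, which makes a hydroxylated cholesterol and is induced in immune cells. Against the libraries labelled CRS-NKAα1+/-, 7 of 26 were lower and none higher, beside 5.5% and 3.33% of all genes. Apod had 20.8, 49.8 and 45.4 FPKM in CRS-WT-DR5-12D libraries, against 92.2, 92.4 and 129.9 FPKM in libraries labelled CRS-NKAα1+/-. Ch25h had 0.396, 0.546 and 2.27 FPKM in CRS-WT-DR5-12D libraries, against 4.12, 9.58 and 13.0 FPKM in libraries labelled CRS-NKAα1+/-, from as few as 14 fragments. Both lay apart by a wide margin, with log2 fold changes of −1.49 ± 0.30 and −2.25 ± 0.46 (limma adjusted p = 0.0908 and 0.0980). Gramd1a, a sterol carrier between membranes, stood at −0.23, and Npc2, Clu, Lrp1 and Abca7 at −0.29 to −0.18. In CRS-NKAα1+/- relative to CRS-WT, Lrp1, a receptor for APOE, was higher (0.28 ± 0.08, or −0.18 on the TPM scale) and Pltp, a phospholipid carrier, and Clu were lower (−1.06 ± 0.27 and −0.25 ± 0.11), these being 1 of 26 higher and 2 lower, beside 7.6% and 6.51% of all genes. Without the low-dentate libraries Pltp was at −0.38.

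The isoprenoid branch and the fatty acid genes gave few differences. Of 11 branch genes, Dhdds and Dolk of dolichol synthesis were higher in CRS-WT-DR5-12D relative to CRS-WT at an unadjusted p under 0.05 (0.16 and 0.21, or −0.20 and −0.12 on the TPM scale), and Dolk also relative to CRS-NKAα1+/- (0.24). Without CRS-WT replicate 2, Dolk was at 0.12 relative to CRS-WT. Of 16 fatty acid synthesis and SREBP1 genes, Scd1, the stearoyl-CoA desaturase, and Gpam, an acyltransferase of glycerolipid synthesis, were higher in CRS-WT-DR5-12D relative to CRS-WT (0.42 and 0.26, with Gpam at −0.07 on the TPM scale), and Scd1 was at 0.26 without CRS-WT replicate 2. These counts, 2 of 11 and 2 of 16, stand beside 6.33% of all genes. None of the 16 had an unadjusted p under 0.05 relative to CRS-NKAα1+/-. In CRS-NKAα1+/- relative to CRS-WT, Elovl5 and Fads2 of polyunsaturated fatty acid synthesis were lower (−0.23 and −0.48), 2 of 16 beside 6.51% of all genes. Without the low-dentate libraries Elovl5 stood at −0.14 and Fads2 at 0.04, and Fads2 was at −0.26 without CRS-NKAα1+/- replicate 1 and at −0.75 without replicate 3. The median log2 fold change in CRS-WT-DR5-12D relative to CRS-WT was 0.12 for the branch genes, 0.05 for the fatty acid genes and −0.11 for the other transport genes.

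**Figure D4:**
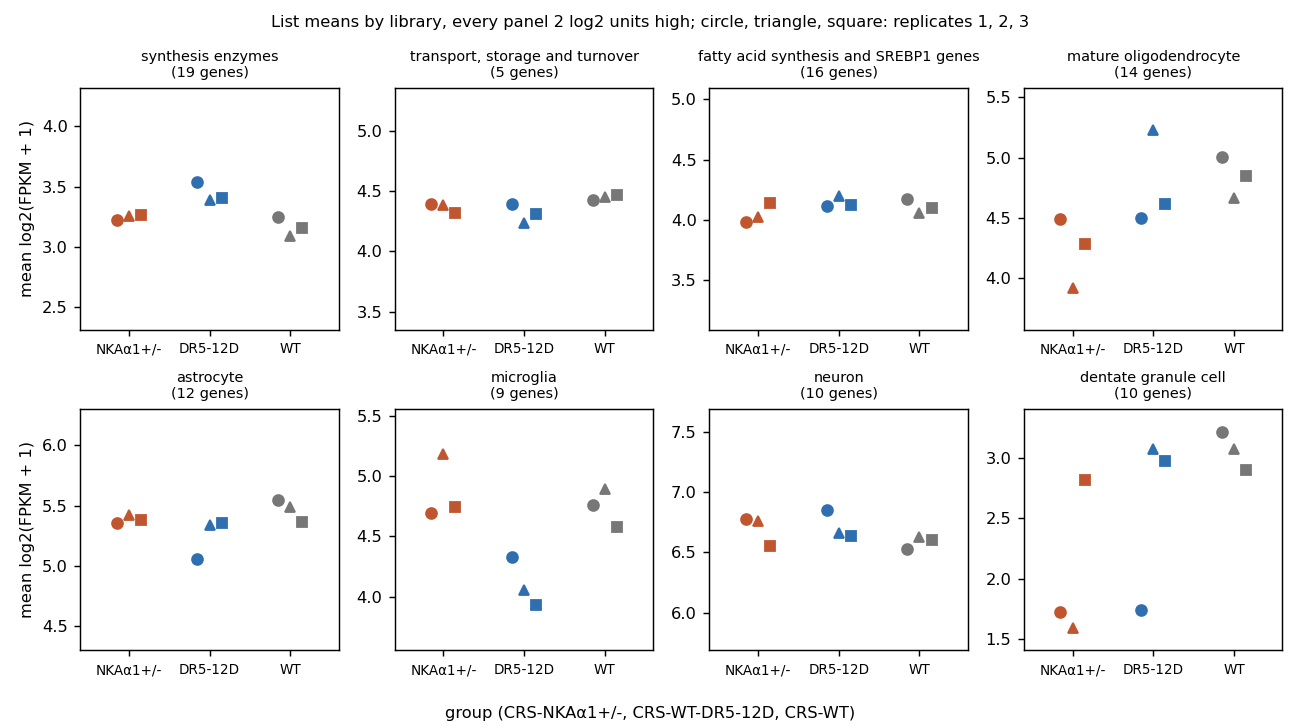
Mean log2(FPKM + 1) of 8 gene lists in each library by group, every panel covering the same 2 log2 units. The synthesis enzymes lie at 3.39 to 3.54 in CRS-WT-DR5-12D and 3.09 to 3.25 in CRS-WT libraries, and microglial markers at 3.93 to 4.33 and 4.57 to 4.90.

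Markers of several cell types moved with the groups as well. Since the tissue was sequenced in bulk, fewer cells of a type and less RNA per cell cannot be told apart. Of 9 microglial markers, 7 were lower in CRS-WT-DR5-12D relative to CRS-WT at an unadjusted p under 0.05 and none higher, and their summed level was 194 to 256 FPKM in CRS-WT-DR5-12D and 343 to 430 FPKM in CRS-WT libraries. Of all genes 6.33% were higher and 6.71% lower by the same measure, so that counts of 1 or 2 markers are near the background. Of 10 endothelial markers 6 were lower, and of 10 oligodendrocyte precursor markers 4 lower and 1 higher. Astrocyte markers gave 1 of 12 lower, with sums of 749 to 839 FPKM in CRS-WT-DR5-12D and 861 to 971 FPKM in CRS-WT libraries. Mature oligodendrocyte markers, a cell type with high cholesterol synthesis, gave none of 14 in either direction, with sums of 578 to 1059 FPKM in CRS-WT-DR5-12D and 749 to 1001 FPKM in CRS-WT libraries. Neuron markers gave 2 of 10 higher, and dentate granule cell markers none of 10. In CRS-NKAα1+/- relative to CRS-WT, 9 of 14 oligodendrocyte markers were lower, with sums of 367 to 615 FPKM in libraries labelled CRS-NKAα1+/- and 749 to 1001 FPKM in CRS-WT, as were 5 of 10 dentate granule cell markers, 5 of 10 precursor markers, 4 of 10 endothelial markers, 3 of 12 astrocyte markers and 2 of 9 microglial markers. In the same comparison 1 marker each of astrocytes, microglia, neurons and oligodendrocyte precursors was higher, beside 7.6% higher and 6.51% lower of all genes. In CRS-WT-DR5-12D relative to CRS-NKAα1+/-, 7 of 14 oligodendrocyte markers were higher, 6 of 9 microglial markers were lower and 1 higher, 3 of 12 astrocyte markers were lower and 1 higher, 2 of 10 endothelial markers were lower and 2 higher, and 1 of 10 dentate granule cell markers was higher, beside 3.33% higher and 5.5% lower of all genes. None of the markers counted up to here was at 0 in any library. Of the choroid plexus and ependymal markers counted below, Ccdc153 and Tmem212 were at 0 in CRS-NKAα1+/- replicate 1. Red blood cell markers had summed levels of 150 to 277 FPKM in CRS-WT-DR5-12D, 34.6 to 65.8 FPKM in libraries labelled CRS-NKAα1+/- and 85.6 to 310 FPKM in CRS-WT. All 5 of them were lower in CRS-NKAα1+/- relative to CRS-WT (median log2 fold change −1.91), 4 were higher in CRS-WT-DR5-12D relative to CRS-NKAα1+/- (median 2.05), and 1 was lower in CRS-WT-DR5-12D relative to CRS-WT (median −0.02). Of 8 meningeal fibroblast markers 1 was lower in each comparison with CRS-WT, with medians of −0.52 for CRS-WT-DR5-12D and −0.67 for libraries labelled CRS-NKAα1+/-. Of 9 mural markers 1 and 3 were lower, and of 6 tested choroid plexus and ependymal markers none. The part of these differences in the values of the cholesterol genes was not tested.

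With the 3 low-dentate libraries left out, 11 members were higher and 2 lower in CRS-WT-DR5-12D relative to CRS-WT at an unadjusted p under 0.05, beside 6.85% and 7.26% of all genes, with 2 CRS-WT-DR5-12D libraries left. Idi1 was then at 0.72, Insig1 at 0.43, Hmgcs1 at 0.26, Apoe at −0.46 and Abca1 at −0.28, and Soat1 at −0.20 no longer had an unadjusted p under 0.05. In CRS-WT-DR5-12D relative to CRS-NKAα1+/- the count became 3 higher (Hmgcs1, Hsd17b7 and Insig1) and none lower, beside 2.53% and 4.4% of all genes. In CRS-NKAα1+/- relative to CRS-WT it became none higher and 1 lower (Apoe, at −0.48), beside 5.04% and 3.89%, with Hsd17b7 at 0.06 and Acat2 at −0.12. Those 2 comparisons then rest on 1 library labelled CRS-NKAα1+/-, assumed to vary like the other groups.

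**Figure D5:**
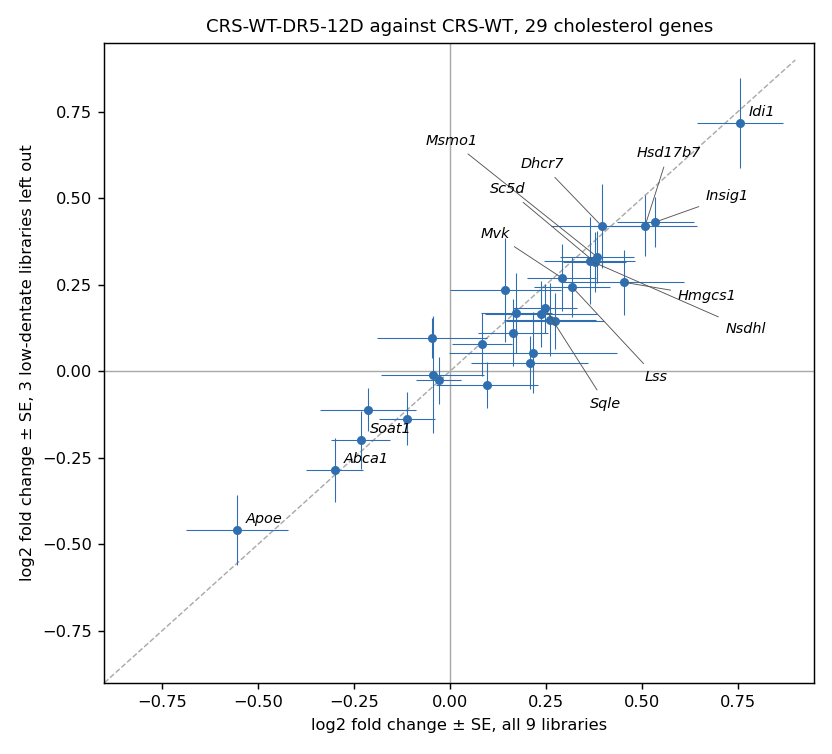
Log2 fold change with its SE of the 29 members in CRS-WT-DR5-12D relative to CRS-WT, with all 9 libraries (x axis) and without the 3 low-dentate libraries (y axis), the dashed line marking equal values. Idi1 is at 0.76 and 0.72 and Apoe at −0.55 and −0.46. In this comparison only CRS-WT-DR5-12D replicate 1 is left out. The 14 named genes did not overlap CRS-WT, so their signs could not turn.

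The scale of the values also bears on direction. A short RNA model, Gm23935, held 26.5% to 37.9% of all FPKM in the CRS-WT-DR5-12D libraries and those labelled CRS-NKAα1+/-, and 4.67% to 19.3% in CRS-WT libraries. Rescaling to TPM moved the median of all genes to −0.33 in CRS-WT-DR5-12D relative to CRS-WT, −0.42 in CRS-NKAα1+/- relative to CRS-WT and 0.10 in CRS-WT-DR5-12D relative to CRS-NKAα1+/-. At an unadjusted p under 0.05, members were then 1 higher and 7 lower, 0 higher and 18 lower, and 9 higher and 0 lower in these comparisons, beside 0.755% and 37.5%, 1.06% and 56%, and 3.23% and 3.31% of all genes. A limma adjusted p under 0.05 was found for 2, 15 and 0 members, beside 5.49%, 42% and 0.383% of all genes. Relative to that median the members' median was 0.22, 0.02 and 0.16, beside 0.21, 0.05 and 0.14 on the FPKM scale. In CRS-WT-DR5-12D relative to CRS-WT, Mvk and Sqle turned to −0.04 and −0.10 on the TPM scale, which is 0.28 and 0.23 above the median of all genes.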

How the data were processed

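Total RNA was extracted with TRIzol and checked on a Bioanalyzer, per the labels' protocols. The authors deposited 1 table of FPKM with 9 library columns. Reads were processed with cutadapt, HISAT2 and RSEM 1.2.30 on GRCm38, per the submitters' processing notes, with annotation and strand setting not given in the sources used here. Gene positions and exon lengths came from GENCODE vM21, and promoters from RefSeq. In 16215 of 17722 tested genes with a length, FPKM gave whole fragment counts within 0.02, which set the implied depths.

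Values were taken as log2(FPKM + 1), a scale that understates changes of low genes, for the 17753 genes with a mean of at least 0.5 FPKM, and the fit was made by limma 3.58.1 (R 4.3.3) over all 9 libraries, with group means and a mean-variance trend. Tests were two-sided, with Benjamini-Hochberg adjustment over all genes tested, and were tested on simulated data. Python 3.11.15, numpy 2.4.6, pandas 2.3.3 and matplotlib 3.10.9 made tables and plots. The members and lists were chosen with earlier results of these data known. A few genes are not reported here. Described gene by gene are members with an unadjusted p under 0.05 or among the 3 smallest p, and up to 3 genes per other list and comparison; Abca7, Apod and Ch25h in some comparisons, and members named for their ranges, were named after their values were seen. Alternatives were other pseudocounts and filters, TPM, quantile scaling, only the groups compared, no trend, voom on recovered counts, a replicate block, and leaving out libraries.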

Additional observations from a re-analysis of the deposited data

How the results depend on the processing

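No cholesterol gene was called at an adjusted p under 0.05 in any comparison or in the F-test with a pseudocount of 0.1, no filter, a minimum of 2 FPKM, quantile scaling, only the groups compared, no trend, voom on recovered fragment counts, each library left out in turn (0 to 0 in each), or the 3 low-dentate libraries left out. After rescaling to TPM, 15 were called in CRS-NKAα1+/- relative to CRS-WT, beside 42% of all genes, 2 in CRS-WT-DR5-12D relative to CRS-WT, beside 5.49%, and 4 in the F-test, beside 9.86%. With Gm23935 left out of the TPM sum, a setting chosen after seeing the data, the median of all genes moved by no more than 0.023, and 1 member was called in CRS-WT-DR5-12D relative to CRS-NKAα1+/- (Insig1, log2 fold change 0.49, limma adjusted p = 0.0493, beside 0.049 to 0.320 over all alternatives), beside 0.637% of all genes, and 2 in the F-test, beside 0.49%. Some genes described from the 4 further lists passed that threshold in at least 1 alternative, TPM included. They were Apod and Ch25h in CRS-WT-DR5-12D relative to CRS-NKAα1+/-, and Clu and Npc2 in CRS-WT-DR5-12D relative to CRS-WT. In CRS-NKAα1+/- relative to CRS-WT they were Pltp, Clu, Elovl5 and Fads2.

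TPM turned the sign of Dhdds (−0.196), Dolk (−0.121), Gpam (−0.0721), Mvk (−0.0426) and Sqle (−0.0952) in CRS-WT-DR5-12D relative to CRS-WT and of Hsd17b7 (−0.0160), Lrp1 (−0.183) and Pmvk (−0.254) in CRS-NKAα1+/- relative to CRS-WT, by the shift of all genes given above. Fads2 turned to 0.0411 in CRS-NKAα1+/- relative to CRS-WT without the low-dentate libraries, and the cause was not tested. Members at an unadjusted p under 0.05 were also counted over alternatives other than TPM and leaving out the low-dentate libraries, which is given above. They numbered 12 to 18 in CRS-WT-DR5-12D relative to CRS-WT, beside 8.91% to 14.3% of all genes. In CRS-WT-DR5-12D relative to CRS-NKAα1+/- they were 6 to 10, beside 6.06% to 16.3%. In CRS-NKAα1+/- relative to CRS-WT they were 1 to 6, beside 7.32% to 25.8%.

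Deviations of same-numbered libraries correlated at r of −0.0797 to 0.0395 with CRS-WT, and 0.450, −0.350 and 0.497 between the other 2 groups, where low-dentate libraries share number 1, so not every pair was over 0.1 and the numbers were not taken to pair the samples. With the replicate block 0 members were called in each comparison. Members at an unadjusted p under 0.05 were 12 higher and 3 lower in CRS-WT-DR5-12D relative to CRS-WT, beside 5.89% and 6.6% of all genes. They were 8 and 1 relative to CRS-NKAα1+/-, beside 3.53% and 5.58%. In CRS-NKAα1+/- relative to CRS-WT they were 1 and 2, beside 7.73% and 6.61%. In the same order, 0, 40 and 0 of all genes were called, beside 5, 91 and 4 without the block. With 3 libraries a group and adjustment over 17753 genes, differences of the size seen here did not reach the threshold, which does not show that the groups are alike.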
